A study of Homo sapiens with 5 samples.

Results

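The genes described here are 10 that control entry into the cell cycle: the D-type cyclins CCND1, CCND2 and CCND3, their kinases CDK4 and CDK6, the kinase inhibitors CDKN1B, CDKN1C and CDKN2B, the ubiquitin ligase subunit SKP2 and the retinoblastoma gene RB1. They were found by gene identifier among the 19936 genes of each library, and all 10 had reads in every library. The libraries come from LX-2, a human hepatic stellate cell line, harvested 48 h after transfection. Control siRNA was used for 2 libraries and siRNA against LIX1L for 3 (siLIX1L 1, 2 and 3). The title of the series links LIX1L with the chemokine CCL20 and fibrosis; the comparison asks what changes in these cells when LIX1L is reduced.

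D-type cyclins are made in response to growth signals and bind CDK4 or CDK6. The active kinase phosphorylates the RB protein, which then releases E2F transcription factors, and these switch on the genes of DNA synthesis. The INK4 inhibitor p15 (from CDKN2B) blocks CDK4 and CDK6, while the CIP/KIP inhibitors p27 (CDKN1B) and p57 (CDKN1C) bind cyclin-CDK complexes, above all those of CDK2. SKP2 is the subunit of an SCF ubiquitin ligase that recognises phosphorylated p27 and sends it for degradation. Stellate cells of a healthy liver rarely divide and enter the cycle when activated by injury. LX-2 is a permanent line derived from cells immortalised with a viral large T antigen, a protein that binds RB and its relatives, which limits it as a model of this pathway.

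Depth was 14856104 to 18294056 reads per library, and levels are given as RPM, reads per 1000000. Throughout, values are listed by library number. LIX1L was at 26.4 and 35.5 RPM with control siRNA against 6.60, 7.08 and 3.65 RPM with its own siRNA, and fell by 2.36 on log2(RPM + 0.5) (limma adjusted p = 0.0383). On log2(FPKM + 1), where the pseudocount is close to its level, it fell by 0.87 (limma adjusted p = 0.0384). It met the minimum of 1 FPKM for that test only through the controls. Its reads could include those of an overlapping antisense gene. Of 12 markers of stellate cells and myofibroblasts, 9 or 10 had at least 10 reads in each library, and the retinoid enzyme gene LRAT was at 0 in all 5. Among them ACTA2 was at 35.4 to 39.0 RPM with control siRNA and 8.41 to 14.8 RPM with LIX1L siRNA. COL1A2 was at 101.1 to 134 RPM and 37.1 to 61.5 RPM (limma adjusted p = 0.0683). PDGFRA also lay lower without overlap, while groups overlapped for COL1A1, COL3A1, VIM, TAGLN, PDGFRB, RGS5, DES and GFAP. The 12 stellate markers summed to 3026 and 7572 RPM in the controls and to 4496 to 5407 RPM in the siLIX1L libraries, which overlap. The 4 cholangiocyte markers summed to 31.4 and 46.4 RPM in the controls and 53.9 to 105 RPM in the siLIX1L libraries. Most of that sum was SOX9, at 28.75 to 42.0 RPM and 50.7 to 103.5 RPM (limma adjusted p = 0.103). KRT7 was at 2.19 to 4.1 RPM and 1.06 to 3.03 RPM, with groups that overlapped, while KRT19 and EPCAM had few or no reads. Unlike SOX9, KRT7, KRT19 and EPCAM had lower means with LIX1L siRNA. ACTA2, COL1A2, PDGFRA and SOX9 had groups that did not overlap, and their part in the results below was not tested. Among the 13096 genes with at least 10 reads in at least 2 libraries, 22.1% were higher and 21.9% lower without overlap. The 6 hepatocyte markers summed to 1.52 to 6.45 RPM and the 5 endothelial markers to 2.19 to 5.23 RPM. The 6 markers of macrophages and leukocytes summed to 11.3 and 38.05 RPM in the controls and 6.18 to 9.20 RPM in the siLIX1L libraries. Most of that sum was CD14, which lay lower without overlap and whose part was not tested either. SiLIX1L 1 and 2 were nearly alike (chi-square per gene 5.59, against 55.4 to 165 for the other pairs), and the controls differed from each other (121) more than control 1 did from any siLIX1L library (94.1 to 105). Separate cultures for the libraries are not mentioned in the labels. The p-values therefore speak only of the spread among the libraries sequenced, and that spread may be technical. The share of reads from the mitochondrial genome was 2.24 and 3.35% with control siRNA and 1.08 to 1.29% with LIX1L siRNA; the part of this shift in the results below was not tested. Bulk RNA cannot tell fewer cells in a phase of the cycle from less RNA per cell.

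CCND1 and SKP2 rose after LIX1L siRNA, and no other gene of the 10 passed the test in any direction. The main test was limma on log2(FPKM + 1), where FPKM is reads per kilobase of gene span per 1000000 reads. It took the 6464 genes that reached 1 FPKM in 2 or more libraries, and an adjusted p under 0.05 was a call. It covered 6 of the 10: CCND1, CDK4, CDKN1B, CDKN2B, SKP2 and RB1, of which 2 rose and 4 did not pass. Among all genes tested 1.87% passed, and 0.743% passed as higher. The other 4 (CCND2, CCND3, CDK6 and CDKN1C) lay below the minimum, which counts reads per gene span with introns included. RB1 reached the minimum only through the siLIX1L libraries. On log2(RPM + 0.5), where all 10 could be tested among 13096 genes, CCND1 and SKP2 again were the 2 that passed, against 0.916% of all genes. The 2 called by edgeR on the recovered reads (1.44% of 13026 genes) and by DESeq2 (12.6% of 13299 genes) were also CCND1 and SKP2.

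**Figure D1:**
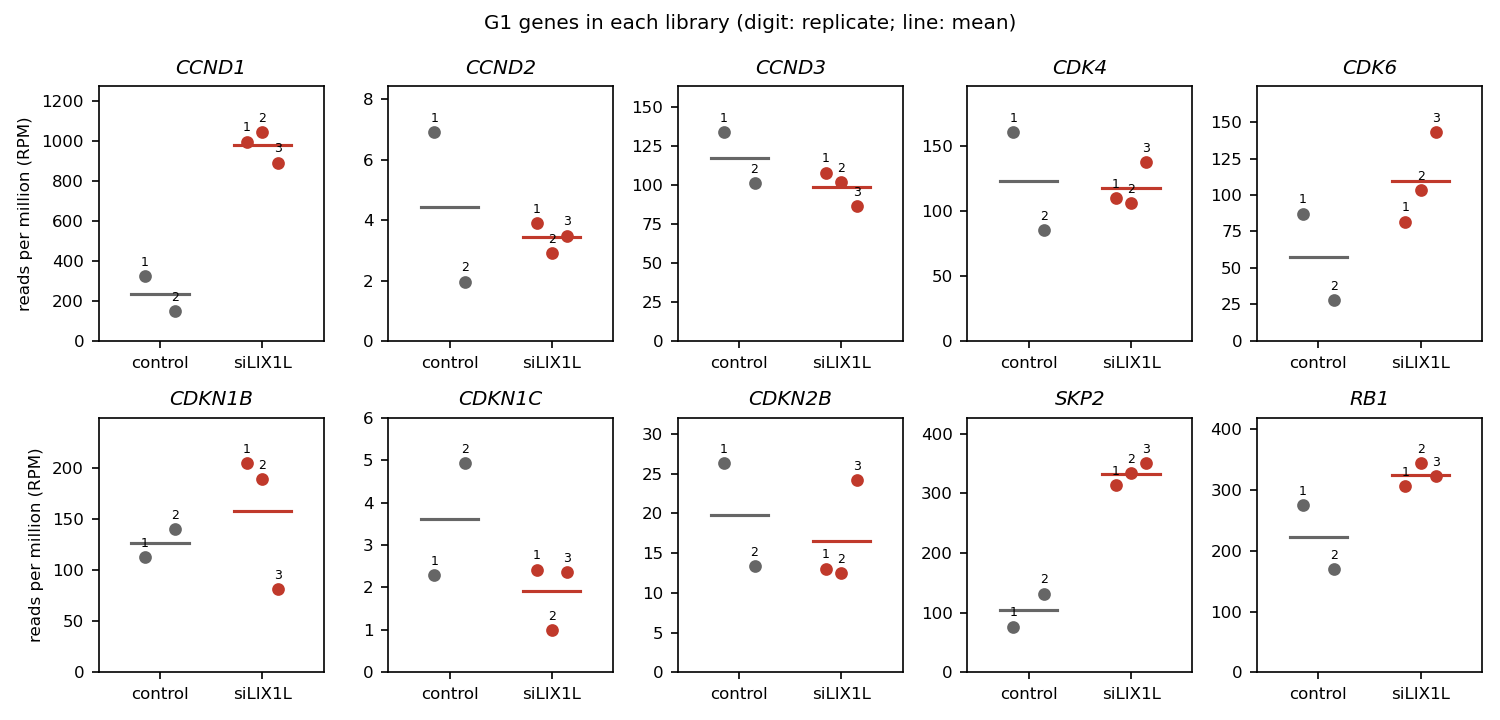
Level of each of the 10 genes in RPM (linear vertical axes from 0, a separate scale per gene) in the 2 control (grey) and 3 siLIX1L (red) libraries; points are libraries with their replicate number and lines are group means. For CCND1, SKP2 and RB1 every siLIX1L library lies above both controls, and for the other 7 genes the groups overlap.

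CCND1 encodes cyclin D1, the D-type cyclin that many mesenchymal cells induce on growth stimulation. It was at 323 and 148 RPM with control siRNA against 997, 1046 and 892 RPM with LIX1L siRNA. The groups did not overlap, and the lowest siLIX1L library was 2.76-fold above the higher control, while the controls differed 2.19-fold between themselves. Mean levels were 235 ± 124 RPM (SD, n = 2) and 978.5 ± 78.8 RPM (SD, n = 3), a ratio of 4.16. On the log2(FPKM + 1) scale CCND1 rose by 2.09 (SE 0.32, limma adjusted p = 0.0394). Without control 1 the ratio was 6.62, and without control 2 it was 3.03. CCND1 lies on GRCh38 chromosome 11, 69641087 to 69654474, plus strand, and its exons overlap those of the oppositely oriented LTO1, which had 24.1 to 48.3 RPM in the 5 libraries.

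CCND3 encodes cyclin D3 and CCND2 cyclin D2, and neither passed a test. CCND3 was at 134 and 101.0 RPM with control siRNA against 108, 102 and 86.5 RPM with LIX1L siRNA, so that siLIX1L 1 and 2 lay between the controls and siLIX1L 3 was the lowest. Its log2(RPM + 0.5) difference was -0.24, with a 95% interval of -0.73 to 0.245 (limma adjusted p = 0.496). CCND2 was scarce, with 103 and 36 reads (6.92 and 1.97 RPM) with control siRNA against 58, 44 and 62 reads (3.90, 2.91 and 3.48 RPM) with LIX1L siRNA. All 3 siLIX1L values lay between the 2 controls. The interval of its log2(RPM + 0.5) difference, -1.22 to 0.96, covers changes of about equal size in both directions (limma adjusted p = 0.884). Reads of CCND2 cannot be separated from those of the overlapping CCND2-AS1, since whether reads were counted by strand is not known.

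To compare levels between genes, RPM was divided by the summed exon length of each gene in GENCODE 29 (4.83 kb for CCND1, 7.16 kb for CCND2 and 5.80 kb for CCND3). On this scale CCND1 made up 73.6 and 63.4% of the 3 D-type cyclins with control siRNA against 91.5, 92.35 and 92.3% with LIX1L siRNA. CCND3 made up 25.4 and 36.05% with control siRNA against 8.23, 7.47 and 7.45% with LIX1L siRNA. CCND2 stayed below 1.1% everywhere, at most 1.06% in control 1. The summed level of the 3 cyclins was 90.9 and 48.3 RPM per kb with control siRNA against 226, 234.5 and 200.1 RPM per kb with LIX1L siRNA. These shares follow from the values of CCND1 and were not tested separately.

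CDK4 and CDK6 are the catalytic partners of the D-type cyclins. CDK4 was at 160 and 84.8 RPM with control siRNA against 110, 106 and 137 RPM with LIX1L siRNA. Every siLIX1L library lay between the controls. The log2(FPKM + 1) difference was near 0, with a 95% interval of -0.67 to 0.67 (limma adjusted p = 0.997), which leaves room for a change of up to that size. CDK4 (chromosome 12, 57747727 to 57756013, minus strand) has exons that overlap TSPAN31 on the other strand, which had 12.4 to 19.2 RPM.

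CDK6 showed the widest gap between the controls after CCND2, 3.11-fold, with 87.1 RPM in control 1 and 28.04 RPM in control 2. In siLIX1L 1, 2 and 3 it was at 81.8, 103 and 143 RPM, so siLIX1L 1 lay below control 1 and the groups overlapped. Means were 57.6 ± 41.8 (SD, n = 2) and 109 ± 31.2 RPM (SD, n = 3). The log2(RPM + 0.5) difference was 1.10 with a 95% interval of 0.0041 to 2.19; it did not pass after adjustment (limma unadjusted p = 0.0493, adjusted p = 0.197; edgeR adjusted p = 0.243). The mean ratio of 1.90 became 3.90 without control 1 and 1.26 without control 2. Per kb of exons CDK6 made up 12.3 and 7.87% of the sum of CDK4 and CDK6 with control siRNA against 16.2, 20.1 and 21.2% with LIX1L siRNA.

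Of the 10 genes, 7 had a window in the RefSeq promoter table (GRCh38.p14), where CCND1, CCND2 and CDKN1C were not found. The windows shown are the 250 bases before the start, 5′ to 3′ on the gene's strand, for CDK4, a gene whose groups overlapped, and for SKP2, which rose. CDK4 is shown at chr12:57752311-57752560 (minus strand) and SKP2 at chr5:36151861-36152110 (plus strand). Capitals mark E-boxes (CACGTG, the letters bound by MYC and related factors) in CDK4 and the single GC box (GGGCGG, here on the other strand) in SKP2.
CDK4: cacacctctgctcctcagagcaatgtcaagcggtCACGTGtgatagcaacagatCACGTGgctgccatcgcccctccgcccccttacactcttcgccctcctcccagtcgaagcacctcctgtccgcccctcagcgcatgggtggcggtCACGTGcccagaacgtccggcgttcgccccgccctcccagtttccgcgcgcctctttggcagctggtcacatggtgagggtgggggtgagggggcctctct
SKP2: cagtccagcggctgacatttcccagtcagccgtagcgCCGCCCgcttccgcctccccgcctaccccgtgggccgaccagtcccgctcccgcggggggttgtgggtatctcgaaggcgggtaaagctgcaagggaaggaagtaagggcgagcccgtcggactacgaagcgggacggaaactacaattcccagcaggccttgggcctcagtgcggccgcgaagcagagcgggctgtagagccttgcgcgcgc
CDK4 held 3 E-boxes, the farthest 216 bases before the start, and also 3 GC boxes, which are not capitalised. Among 35116 windows of that length 6.34% held at least 1 E-box and 0.0797% at least 3. At least 1 GC box was in 42.6% of windows, as in SKP2, and at least 3 were in 13.9%, as in CDK4. SKP2 held no E-box and no E2F motif (TTTCCCGC, TTTCGCGC, TTTGCCGC or TTTGGCGC, searched on both strands and found in 2.79% of all windows). None of the 10 windows of the 7 genes held an E2F motif of these letters, and E-boxes were found only in CDK4. The RB1 window belongs to a start inside the gene, not to its first exon. The CCAAT box (CCAAT), the TATA box (as the letters TATAAA) and the cyclic AMP element (as the letters TGACGTCA) were searched too, and neither window shown holds them. These matches describe letters and were not tested against expression.

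The inhibitors gave no common direction. CDKN1B, which encodes p27, was at 113 and 140 RPM with control siRNA against 205, 189 and 81.5 RPM with LIX1L siRNA. SiLIX1L 1 and 2 lay above both controls and siLIX1L 3 below both, a 2.51-fold spread within the group, the widest of the 10 genes there. The log2(FPKM + 1) difference was 0.21 (95% interval -0.72 to 1.15, limma adjusted p = 0.751). Without siLIX1L 3 the mean RPM ratio was 1.55, against 1.25 with it.

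CDKN2B, which encodes p15, an inhibitor that TGF-β induces in many cell types, was at 26.3 and 13.3 RPM in the controls. In siLIX1L 1, 2 and 3 it was at 13.1, 12.4 and 24.1 RPM, so that control 1 and siLIX1L 3 were high and the other 3 libraries lay close together. The log2(FPKM + 1) difference was -0.18 (95% interval -0.89 to 0.52, limma adjusted p = 0.720). CDKN1C, the imprinted gene of p57, had few reads, with 34 and 90 reads (2.29 and 4.92 RPM) with control siRNA against 36, 15 and 42 reads (2.42, 0.993 and 2.36 RPM) with LIX1L siRNA. Control 2 held the most, and control 1 lay among the siLIX1L libraries. Its log2(RPM + 0.5) difference was -0.74 with an interval of -1.76 to 0.27 (limma adjusted p = 0.322). Per kb of exons, CDKN1B made up 80.8 to 95.1% of the 3 inhibitors in every library.

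SKP2 (chromosome 5, 36151989 to 36184319, plus strand) was at 76.9 and 132 RPM with control siRNA against 313, 334 and 350 RPM with LIX1L siRNA. The groups were well apart: the lowest siLIX1L library was 2.38-fold above control 2, and the siLIX1L libraries differed by only 1.12-fold. Means were 104 ± 38.9 RPM (SD, n = 2) and 332 ± 18.2 RPM (SD, n = 3), a ratio of 3.18. On the log2(FPKM + 1) scale SKP2 rose by 1.44 (SE 0.20, limma adjusted p = 0.0384). The controls were in the opposite order to CCND1, with control 2 the higher for SKP2 and control 1 the higher for CCND1. With edgeR both genes were close to the threshold (adjusted p = 0.0460 for CCND1 and 0.0486 for SKP2).

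SKP2 and its substrate's gene CDKN1B were compared per kb of exons. Their ratio was 0.4995 and 0.688 with control siRNA against 1.12, 1.29 and 3.15 with LIX1L siRNA. SKP2 was thus below CDKN1B in both controls and above it in all 3 siLIX1L libraries. The high value of siLIX1L 3 combines the highest SKP2 with the lowest CDKN1B of the 5 libraries. These are mRNA levels, and p27 protein was not measured.

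RB1, the target of the cyclin D kinases, was at 275 and 169 RPM with control siRNA against 307, 344 and 323 RPM with LIX1L siRNA. The groups did not overlap, but the gap was narrow, 1.11-fold between control 1 and siLIX1L 1, less than the 1.63-fold difference between the controls. The log2(RPM + 0.5) difference was 0.58 (95% interval 0.02 to 1.15, limma adjusted p = 0.187), and on log2(FPKM + 1), where its long gene span of 296 kb gives it about 1 FPKM, it was 0.27 (limma adjusted p = 0.203). Of the settings tried, RB1 passed only without control 1 (limma adjusted p = 0.0395). LPAR6 lies inside RB1 on the other strand and had 2.81 to 8.97 RPM. In all, 3 of the 10 genes had groups that did not overlap, all 3 higher, where 22.1% of the 13096 genes with at least 10 reads in at least 2 libraries were higher and 21.9% lower without overlap.

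**Figure D2:**
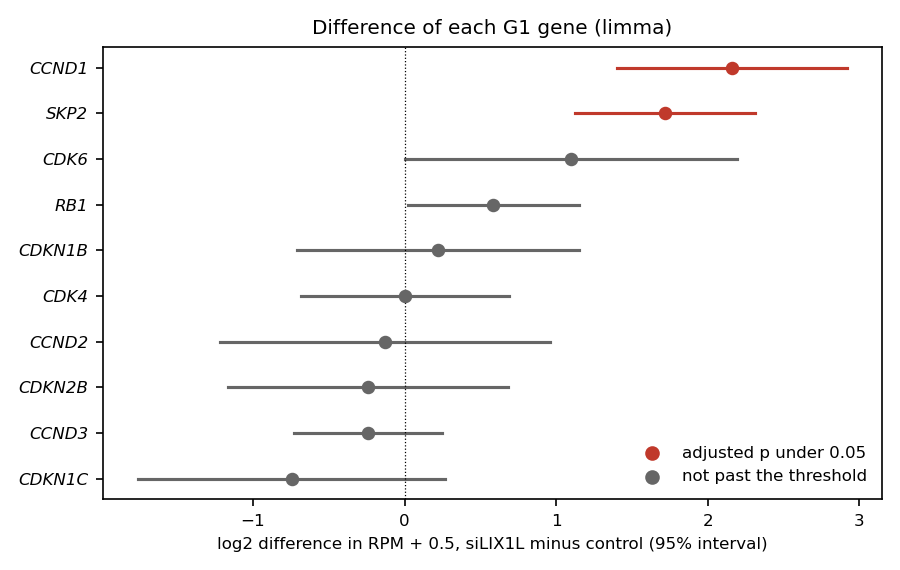
Log2 difference in RPM + 0.5, siLIX1L minus control, for each of the 10 genes (points) with limma's 95% interval (lines); red marks adjusted p under 0.05. CCND1 and SKP2 lie at 2.16 and 1.72 with intervals clear of 0, while CDK6 and RB1 have intervals that start just above 0 and did not pass after adjustment over 13096 genes.

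Per kb of exons the order in the controls was CCND1 (48.75 ± 25.65 RPM per kb), CDKN1B (45.05 ± 6.97), CDK4 (38.7 ± 16.9), RB1 (34.5 ± 11.6), SKP2 (27.2 ± 10.2), CCND3 (20.2 ± 4.01), CDKN2B (4.88 ± 2.255), CDK6 (4.70 ± 3.41), CDKN1C (1.45 ± 0.752) and CCND2 (0.621 ± 0.490; all SD, n = 2). Neighbours among the first 6 differed by less than the spread between the 2 controls. In the siLIX1L libraries CCND1 (203 ± 16.3 RPM per kb) and SKP2 (86.6 ± 4.75) stood first and were clear of each other. They were followed by CDKN1B (56.3 ± 23.9), RB1 (50.3 ± 2.89), CDK4 (37.1 ± 5.44), CCND3 (17.0 ± 1.89), CDK6 (8.92 ± 2.54), CDKN2B (4.08 ± 1.62), CDKN1C (0.777 ± 0.326) and CCND2 (0.480 ± 0.0695; all SD, n = 3). CDKN1B and RB1 did not differ beyond the spread of CDKN1B. CDKN1C and CCND2 differed by less than the larger of their SDs in the siLIX1L libraries, and CDKN2B and CDK6 did so in the controls. SKP2 was sixth of the 10 in control 1 and second in control 2, and second in each siLIX1L library. Reads were assigned to genes by the authors, and any intronic reads among them would raise these values for genes with long introns.

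**Figure D3:**
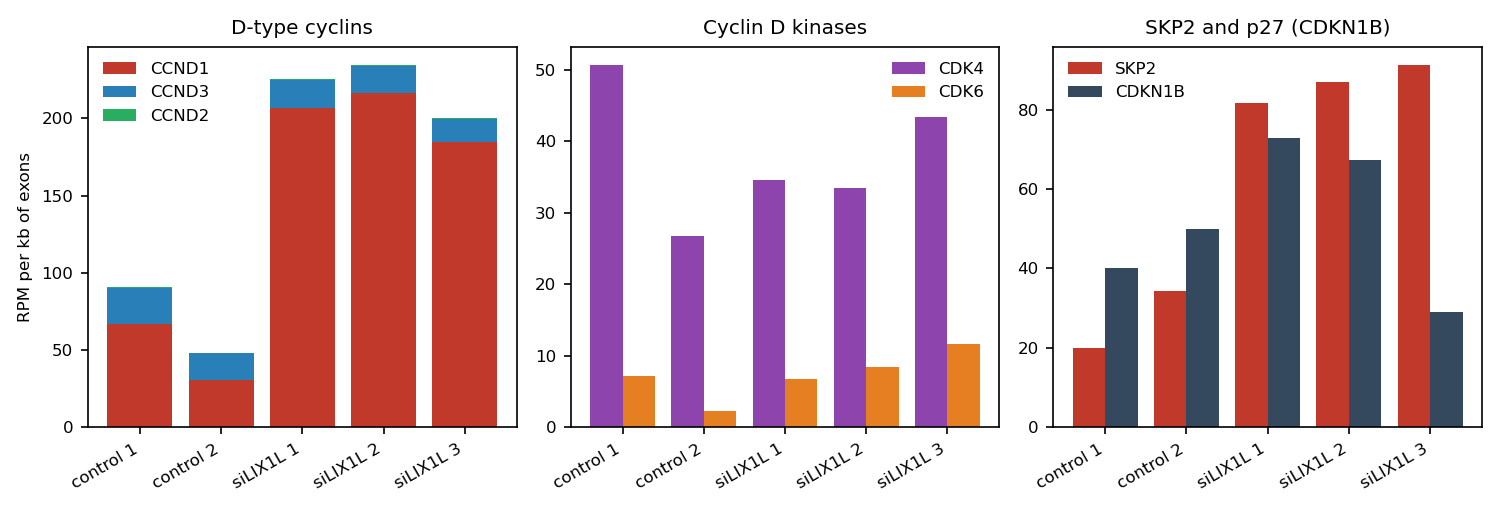
RPM per kb of exons (linear axes from 0) in each library for the D-type cyclins (stacked bars), for CDK4 and CDK6, and for SKP2 and CDKN1B (paired bars). The D-type cyclins sum to 48.3 and 90.9 in the controls and to 200.1 to 234.5 in the siLIX1L libraries. CCND1 makes up 63.4 and 73.6% of these sums in the controls and 91.5 to 92.35% in the siLIX1L libraries. SKP2 passes CDKN1B in each siLIX1L library.

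Genes around the 10 were taken from 7 lists of the pathway with 66 genes, all with at least 10 reads in at least 2 libraries; 47 were tested on log2(FPKM + 1), of which TK1 fell, none rose and 46 did not pass. At an unadjusted p under 0.05 the limma count was 27 of 47, where 27.6% of all 6464 genes reached it. EdgeR called 1 of the 66, where it called 1.44% of all genes. DESeq2 called 16 of the 66, where it called 12.6% of all genes. On log2(RPM + 0.5), 25 of the 66 differences were positive and 41 negative, with a median of -0.28 against -0.01 over all 13096 genes. Groups did not overlap for 15 higher and 25 lower genes of the 66, where the shares over all genes were 22.1% higher and 21.9% lower.

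The 4 other inhibitors all had negative log2(RPM + 0.5) differences (median -0.46), and none of the 4 passed limma (2 at an unadjusted p under 0.05, against 27.6% of all genes), edgeR or DESeq2. CDKN1A, which encodes p21, was at 82.0 and 103 RPM with control siRNA against 65.02, 61.8 and 44.5 RPM with LIX1L siRNA (limma adjusted p = 0.117). CDKN2D (p19) was at 26.4 and 28.5 RPM against 22.1, 16.2 and 15.9 RPM (limma adjusted p = 0.123). CDKN2A, which encodes p16 and ARF and is the neighbour of CDKN2B, was at 174 and 172.5 RPM against 149, 128 and 149 RPM (limma adjusted p = 0.301). With the length and GC trend removed the CDKN2A difference turned to 0.19. For these 3 genes every siLIX1L library lay below both controls, where 21.9% of all genes were lower without overlap. For CDKN2C, the fourth, the groups overlapped.

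Among the E2F factors, their partners and the RB relatives, 7 of 12 log2(RPM + 0.5) differences were positive and 5 negative. None of the 8 tested passed limma (6 at an unadjusted p under 0.05, against 27.6% of all genes). EdgeR called 0 of the 12 and DESeq2 5, where DESeq2 called 12.6% of all genes. TFDP1, a DNA-binding partner of several E2F proteins, came closest, with 247 and 193.5 RPM with control siRNA against 441, 424 and 444 RPM with LIX1L siRNA (1.98-fold, limma adjusted p = 0.0503). It passed in 6 of 16 other settings. E2F2, an activating member, was at 49.2 and 29.7 RPM against 16.8, 18.6 and 15.05 RPM (limma adjusted p = 0.0723), and it met the minimum of 1 FPKM only through the controls. E2F7, a repressing member, was at 125 and 44.3 RPM against 205, 237 and 201 RPM (limma adjusted p = 0.0779). E2F1, named after its values were seen, was at 314 and 184 RPM against 78.3, 70.5 and 146.5 RPM (limma adjusted p = 0.0910). In each of these 4 the groups did not overlap. Of the 12 genes of the list, 5 were higher and 2 lower without overlap, against 22.1% and 21.9% of all genes.

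Of the cyclins E and A with CDK1, CDK2 and CDC25, 4 of 8 log2(RPM + 0.5) differences were positive and none of the 5 tested passed limma (4 at an unadjusted p under 0.05, against 27.6% of all genes), nor any gene of the list edgeR or DESeq2. The mitotic kinase CDK1 was at 270 and 349 RPM with control siRNA against 207, 202 and 220 RPM with LIX1L siRNA (limma adjusted p = 0.123). CCNA2, the cyclin of S phase and G2, was at 151 and 154 RPM against 211, 213 and 209 RPM (limma adjusted p = 0.126). CDC25A, the phosphatase that activates CDK2, was at 65.1 and 28.97 RPM against 81.04, 82.2 and 79.6 RPM (limma adjusted p = 0.148).

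Among the partners of SKP2, 7 of 12 log2(RPM + 0.5) differences in the list of SCF subunits and other ligases were positive, with a median of 0.09. None of the 7 tested passed limma (1 at an unadjusted p under 0.05, against 27.6% of all genes). EdgeR called 0 of the 12 and DESeq2 1, where DESeq2 called 12.6% of all genes. That gene was BTRC, which lay below the minimum of 1 FPKM and is named after its values were seen. BTRC was at 22.6 and 16.0 RPM with control siRNA against 37.2, 40.6 and 32.3 RPM with LIX1L siRNA (DESeq2 adjusted p = 0.0091, edgeR adjusted p = 0.0726). The scaffold gene CUL1 was at 87.9 and 67.1 RPM with control siRNA against 109, 105.5 and 119 RPM with LIX1L siRNA (limma adjusted p = 0.178), and it met the minimum of 1 FPKM only through the siLIX1L libraries. FBXO4 (another F-box gene) was at 35.02 and 23.7 RPM against 21.8, 21.2 and 24.1 RPM (limma adjusted p = 0.332). CKS1B, which SKP2 needs to bind p27, was at 102 and 127 RPM against 93.03, 84.7 and 106 RPM (limma adjusted p = 0.395), with groups that overlapped. In the CDK-activating kinase, all 3 log2(RPM + 0.5) differences were negative and edgeR called 0. CDK7, the 1 tested by limma (0 at an unadjusted p under 0.05), was at 90.3 and 68.05 RPM against 76.9, 69.4 and 61.9 RPM (limma adjusted p = 0.610), and its difference turned to 0.07 with the length and GC trend removed and to 0.02 without control 1. DESeq2 called 1 gene of this list, where it called 12.6% of all genes. That gene was CCNH, the cyclin of the complex, named after its values were seen. CCNH was at 117 and 80.1 RPM against 26.05, 27.7 and 69.0 RPM (DESeq2 adjusted p = 0.0449, edgeR adjusted p = 0.1365).

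Of 10 regulators of D-type cyclins and p27, 6 log2(RPM + 0.5) differences were positive and 4 negative. None of the 6 tested passed limma (3 at an unadjusted p under 0.05, against 27.6% of all genes). EdgeR called 0 of the 10 and DESeq2 1, where DESeq2 called 12.6% of all genes. That gene was GSK3B, which lay below the minimum of 1 FPKM and is named after its values were seen. GSK3B was at 93.2 and 69.3 RPM with control siRNA against 117.7, 128.4 and 152.9 RPM with LIX1L siRNA (DESeq2 adjusted p = 0.0447, edgeR adjusted p = 0.1059). The kinase gene AKT1 was at 129 and 107 RPM with control siRNA against 177, 173 and 176.5 RPM with LIX1L siRNA (limma adjusted p = 0.1003). MYC, a growth-driving transcription factor, was at 209 and 107.5 RPM against 87.1, 87.3 and 88.9 RPM (limma adjusted p = 0.153). The zinc finger gene KLF6 was at 121 and 94.1 RPM against 138, 144 and 165 RPM (limma adjusted p = 0.172). GSK3B, AKT1, MYC and KLF6 had groups that did not overlap. Of the 10 regulators, 4 were higher and 2 lower without overlap, against 22.1% and 21.9% of all genes.

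Genes that E2F drives in S phase lay on the other side: 16 of 17 log2(RPM + 0.5) differences were negative, with a median of -0.62, and in 12 of the 17 every siLIX1L library was below both controls, against 21.9% of all genes. Of the 16 tested, 1 fell and 15 did not pass, where 1.87% of all genes passed. At an unadjusted p under 0.05 the limma count was 11 of 16, against 27.6% of all genes. EdgeR called 1 of the 17 and DESeq2 8, against 1.44% and 12.6% of all genes. TK1, thymidine kinase, was at 365 and 346 RPM with control siRNA against 153, 139 and 174 RPM with LIX1L siRNA (2.29-fold lower), and fell by 1.13 on log2(FPKM + 1) (limma adjusted p = 0.0384; 0.0586 with replicate number as a block).

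**Figure D4:**
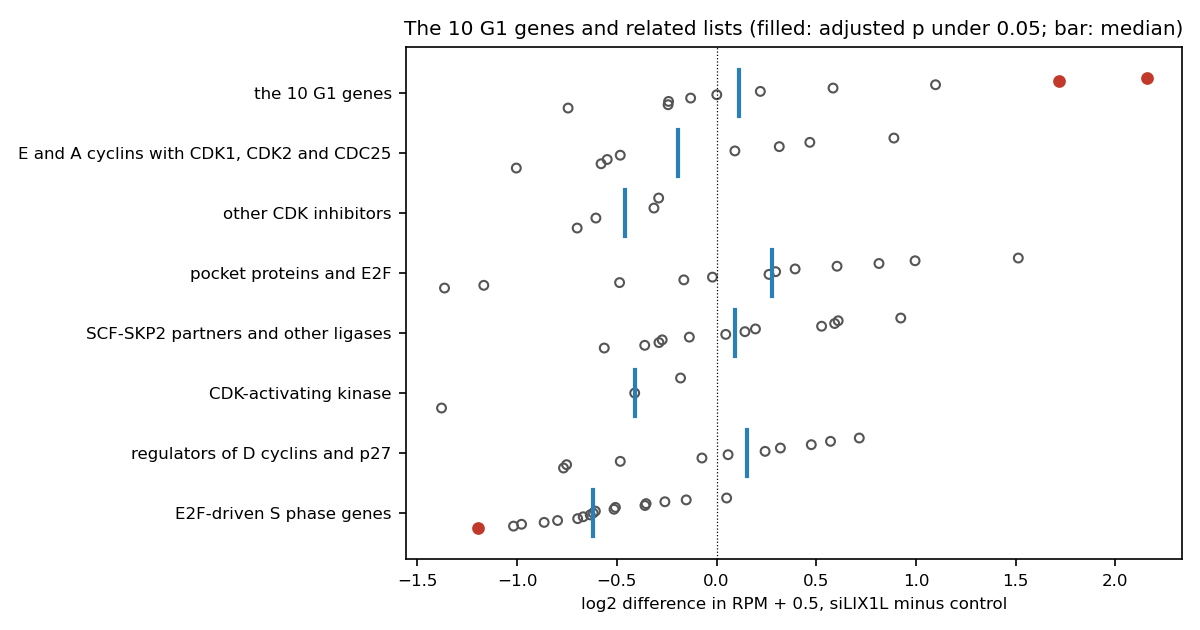
Log2 difference in RPM + 0.5, siLIX1L minus control, for the 10 genes and for each gene of the 7 related lists (points; filled, limma adjusted p under 0.05; blue bars, list medians). The S phase list sits left of 0 with a median of -0.62, and CCND1 and SKP2 are the 2 filled points on the right, with TK1 filled on the left.

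The genes with profiles most like CCND1 over the 5 libraries, by Euclidean distance of mean-centred log2(RPM + 0.5), were UBE4A (distance 0.297), ASAP2 (0.470), NEDD4 (0.521), AJAP1 (0.532) and HMGA2 (0.550). UBE4A was at 25.3 and 12.8 RPM with control siRNA against 71.55, 88.0 and 83.3 RPM with LIX1L siRNA. Those most like SKP2 were CEMIP2 (distance 0.414), SLC6A6 (0.445), the metallothionein MT1E (0.462), SAMHD1 (0.479) and ENTPD7 (0.480). CEMIP2 was at 37.6 and 76.25 RPM with control siRNA against 152, 171 and 136 RPM with LIX1L siRNA. With 5 libraries in 2 groups, a small distance can reflect little more than the difference between the groups and the order of the 2 controls.

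Leaving out a siLIX1L library ended both calls. Without any 1 of the 3, neither gene passed limma (adjusted p = 0.0827 to 0.230 for CCND1 and 0.0813 to 0.230 for SKP2), nor did any gene of the 6464 (899 to 1773 genes had an unadjusted p under 0.05), with log2(FPKM + 1) differences of 2.04 to 2.15 and 1.41 to 1.48. With a trend on transcript length and GC content removed, the differences were 2.01 and 1.355 (limma adjusted p = 0.0674 and 0.0720). With the replicate number as a block, where siLIX1L 3 adds nothing to the difference, both passed (limma adjusted p = 0.0337 for CCND1 and 0.0370 for SKP2). Without siLIX1L 3 and without the block the differences were the same, 2.15 and 1.41, and neither passed (limma adjusted p = 0.0827 and 0.0813). The block rests on a pairing by number that could not be checked.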

How the data were processed

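RNA of LX-2 cells was sequenced 48 h after transfection in 5 libraries, grouped by the siRNA in their titles. The authors deposited FPKM for 19936 genes per library, per the file headers, and for siLIX1L 3 also a raw read count and a gene length. Bowtie 0.12.2 is listed in the submitters' processing notes beside mm8, a mouse build at odds with the human gene IDs; no source used here names the counting tool. Deposited lengths equal the gene span, introns included, in GENCODE 29 for 98.2% of 19926 genes, and coordinates are from that annotation.

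FPKM times length gave whole reads for 100% of values (tolerance 0.01 reads). These equalled the deposited counts for all 19936 genes of siLIX1L 3. Limma 3.58.1 (R 4.3.3; trended and robust empirical Bayes, two-sided tests, threshold 0.05 after Benjamini-Hochberg adjustment over all genes of a fit) was run on log2(FPKM + 1), and on log2(RPM + 0.5) for genes with at least 10 reads in at least 2 libraries. On the recovered reads DESeq2 1.42.0 (Wald test) and edgeR 4.0.16 (TMM factors, default expression filter, quasi-likelihood test) were run. These fits were also run on simulated data with independent libraries and the same spread setting for every gene. The real libraries differ from that, since siLIX1L 1 and 2 were nearly alike, so error rates here are not given by it. False calls were 9 of 177 (limma, FPKM), 4 of 163 (limma, RPM), 3 of 163 (edgeR) and 16 of 181 (DESeq2). Each fit recovered 100% of 4-fold and 59 to 68% of 2-fold changes. A count of 0 allows up to 3 reads, or 0.164 to 0.202 RPM, for counting error only.

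The genes and lists were chosen with earlier results of these data known. In each list up to 4 genes past the threshold with the smallest p were named or, with none, up to 3 others. Like profiles were sought among 10394 genes with a mean of at least 100 reads, without the Y chromosome. E2F1, CCNH, BTRC, GSK3B and the markers given with values are named outside this rule, after their values were seen.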

Additional observations from a re-analysis of the deposited data

How the results depend on the processing

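Limma called 121 genes, 2 of the 10 G1 genes and 1 of the 66 list genes. The 2 were CCND1 and SKP2, which kept their direction in all 16 other settings and passed in 10 of them. With no minimum level, with siLIX1L 1 and 2 averaged, or with the length and GC trend removed, limma called 0 genes, 0 of the 10 and 0 of the list genes, with 3407, 976 and 1539 genes at an unadjusted p under 0.05. Quantile normalization gave 233 genes and 3 list genes, edgeR 188 genes, and DESeq2 1673 genes and 16 list genes. A minimum of 5 FPKM gave 4 list genes and a pseudocount of 0.1 gave 2. Leaving out 1 library gave 0 to 1650 genes, 0 to 3 of the 10 and 0 to 15 list genes: 1650 without control 1, 337 without control 2 and 0 without any 1 siLIX1L library (899 to 1773 at an unadjusted p under 0.05). The cause was not tested. The sign of the uncalled CDK4 difference turned in 8 of 16 settings, and those of CDKN1B (-0.01 without siLIX1L 1), CDKN2B (0.18 without control 1), CDKN2A and CDK7 in 1 or 2.

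The labels number the libraries in both groups, but siLIX1L 3 has no partner. With the replicate number as a block, a fit in which siLIX1L 3 has its own term and so adds nothing to the difference, 94 genes passed, 2 of the 10 (CCND1 and SKP2) and 1 list gene, which was E2F1 (limma adjusted p = 0.0370) and not TK1 (0.0586). Deviations from the group means correlated at -0.119 and -0.101 across genes for the same-numbered pairs. The deviations of the 2 controls mirror each other, so this check cannot decide whether the numbers pair the libraries. Depth limits CCND2 (36 to 103 reads) and CDKN1C (15 to 90 reads) most.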
